A study of Mus musculus with 6 samples.

Results

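Aldehyde dehydrogenases oxidise aldehydes to acids, with NAD or NADP as the electron acceptor. The liver relies on them to clear acetaldehyde made from alcohol, to turn retinal into retinoic acid, to finish the breakdown of proline, valine, thymine, lipid chains and tryptophan, and to make carnitine. In the liver lobule blood flows from the portal vein to the central vein, and hepatocytes along that path are known to divide metabolic tasks between them. The genes of the family described here are Aldh1a1, Aldh1a7, Aldh1b1, Aldh2, Aldh3a2, Aldh4a1, Aldh6a1, Aldh8a1 and Aldh9a1, 9 of the 16623 genes measured. They were chosen by name as a list, and selected on their mean levels in WT against SIRT7 KO mice across hepatocytes and nonparenchymal cells, so their genotype differences are given as values and not as tests.

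Livers of 3 wild-type (WT) and 3 SIRT7 KO mice, all 5 to 6 months old, were measured by single-cell RNA sequencing that counts the 3′ end of each captured RNA by a molecular identifier (UMI). SIRT7 is a sirtuin, an enzyme that uses NAD to remove acyl groups from proteins. Hepatocytes and nonparenchymal cells were set free by collagenase perfusion and each library was loaded with as many of one as of the other. The 6 libraries held 552 to 5609 cells, 11610 in all, with a median of 1630 to 3875 UMIs per cell, and 13 barcode sequences occurred in more than 1 library. Levels below are UMIs per 10,000 UMIs of a cell, averaged over the cells of a mouse, and n counts mice. Sirt7 averaged 0.718, 0.512 and 0.546 UMIs per 10,000 over all cells of the WT mice and 0.100, 0.0814 and 0.139 in the KO mice, so every KO library lay below every WT library although none was at 0. Whether the counted 3′ end lies in the deleted stretch is not given in the sources used here.

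Of 10 clusters, 2 held the highest summed level of 10 hepatocyte markers such as Alb and Apoa1, at 579 UMIs per 10,000 in hepatocyte cluster 2 (1750 cells) and 365 in hepatocyte cluster 4 (1206 cells), against 30.1 to 190 in the others. Cluster 2 was led by hemoglobin genes and Mup17. Without 9 cells with over 1% of their UMIs from hemoglobin genes it was led by Mup17, Sult2a5 and Cyp2c50. Cluster 4 was led by Slc22a30, Gm12909, Mlxipl and Gcgr. None of the hepatocyte markers was among the 10 leading genes of cluster 4, nor of cluster 2 without those cells, so the clusters are called by number. Of 6 pericentral genes used as landmarks, 3 had the higher mean in cluster 2 and 3 in cluster 4, and so did a further 6 kept as a check. Of the 6 periportal landmarks 5 had the higher mean in cluster 4, and 5 of the 6 kept as a check did too. Pck1 averaged 51.2 UMIs per 10,000 in cluster 4 and 10.1 in cluster 2, whereas Ass1 averaged 11.8 and 39.4. The share of hepatocyte cells in cluster 2 ranged from 19.1% in SIRT7 KO mouse 3 to 80.7% in SIRT7 KO mouse 2, so the clusters were compared one at a time. The summed hepatocyte markers in cluster 2 were 702, 787 and 450 UMIs per 10,000 in the WT mice and 460, 291 and 428 in the KO mice, and those in cluster 4 were 603, 440 and 278 against 236, 129 and 313. Their part in the genotype differences below was not tested.

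Aldh1a1 (GRCm38 chromosome 19, 20492715 to 20643465, plus strand) and Aldh1a7 (chromosome 19, 20692953 to 20727562, minus strand) are neighbouring paralogs, Aldh1a1 being the cytosolic enzyme that makes retinoic acid from retinal. Their main transcripts were 89.8% identical over 2048 aligned bases. Over the last 300 bases, where the UMIs are counted, 285 bases aligned at 83.5% identity with no identical run over 24 bases. How reads that matched both were counted is not given in the sources used here, so the split between the paralogs carries some uncertainty. The stretches of 250 bases before the transcription starts (RefSeq, GRCm38.p6, 5′ to 3′ on the strand of the gene) are shown for 4 members, because the paralogs shared much of theirs, Aldh8a1 holds a motif in common with them, and Aldh1b1 had the most negative mean difference between pericentral and periportal cells among the 9. Capitals mark CCAAT, the octamer ATGCAAAT and CTTTGA, the core of TCF binding sites, each on either strand. These motifs were picked after the sequences had been seen, and no 2 matches overlapped in the 4 stretches.
Aldh1a1, chr19:20601718-20601967, plus strand: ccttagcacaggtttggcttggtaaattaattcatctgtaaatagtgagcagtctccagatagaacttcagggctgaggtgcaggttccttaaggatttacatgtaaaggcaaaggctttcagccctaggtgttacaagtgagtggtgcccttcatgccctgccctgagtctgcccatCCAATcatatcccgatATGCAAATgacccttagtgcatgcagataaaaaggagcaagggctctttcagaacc
Aldh1a7, chr19:20727557-20727806, minus strand: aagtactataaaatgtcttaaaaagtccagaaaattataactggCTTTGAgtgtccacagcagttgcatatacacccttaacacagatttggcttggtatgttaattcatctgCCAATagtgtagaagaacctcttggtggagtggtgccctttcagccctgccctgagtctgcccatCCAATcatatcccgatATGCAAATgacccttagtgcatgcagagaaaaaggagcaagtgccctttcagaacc
Aldh8a1, chr10:21377050-21377299, plus strand: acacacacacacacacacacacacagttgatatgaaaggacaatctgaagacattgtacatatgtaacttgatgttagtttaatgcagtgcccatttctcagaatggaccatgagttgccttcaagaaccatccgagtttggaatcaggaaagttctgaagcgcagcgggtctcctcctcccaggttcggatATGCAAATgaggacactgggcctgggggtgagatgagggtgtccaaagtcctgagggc
Aldh1b1, chr4:45798772-45799021, plus strand: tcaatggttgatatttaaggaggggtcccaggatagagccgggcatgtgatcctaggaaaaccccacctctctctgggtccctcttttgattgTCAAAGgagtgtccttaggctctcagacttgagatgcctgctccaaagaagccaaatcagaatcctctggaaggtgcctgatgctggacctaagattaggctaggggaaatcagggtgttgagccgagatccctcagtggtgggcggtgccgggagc
The Aldh1a1 stretch precedes the inner of its 2 RefSeq starts, and 0 to 9 bases of the 4 stretches lay in annotated exons. It matched the Aldh1a7 stretch at 160 of 175 aligned bases, with an identical run of 65 bases that holds a CCAAT match and the octamer. The 8 members with a sequence had 10 stretches. The octamer occurred in 3 of these, 1 each of Aldh1a1, Aldh1a7 and Aldh8a1, at 56 to 58 bases before the start. It occurred in 1.6% of the 32851 stretches of the same length in the table. The stretch before the outer Aldh1a1 start, not shown, held 0 octamers, 0 CCAAT matches and 3 CTTTGA matches. CCAAT was found in 33.8% of all stretches and CTTTGA in 13.8%. A match is a run of letters and not a shown binding site.

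Aldh1a1 was lower in the SIRT7 KO mice in both hepatocyte clusters. In cluster 2 it stood at 9.15, 14.5 and 18.0 UMIs per 10,000 in the WT mice and at 4.84, 8.06 and 7.53 in the KO mice, from 121 to 1113 UMIs a mouse. The groups did not overlap, with means of 13.9 ± 4.46 and 6.81 ± 1.73 (SD, n = 3 each). In cluster 4 it stood at 3.11, 6.39 and 5.81 in the WT mice and at 1.53, 2.38 and 2.80 in the KO mice, again without overlap. The log2 difference, SIRT7 KO minus WT, was -1.0 ± 0.27 (SE) in cluster 2 and -1.15 ± 0.39 in cluster 4. Over the pooled clusters the log2 difference of Aldh1a1 was -1.20 ± 0.46, and there the groups overlapped. SIRT7 KO mouse 2, at 6.96 UMIs per 10,000, lay above WT mouse 1, at 6.72. Aldh1a7 was at 2.0, 1.99 and 3.17 UMIs per 10,000 in cluster 2 of the WT mice and at 0.890, 2.17 and 1.28 in the KO mice, which overlapped through SIRT7 KO mouse 2. In cluster 4 the paralog averaged 0.768 ± 0.343 in the WT and 0.746 ± 0.399 in the KO mice (SD, n = 3 each). Its log2 difference of -0.11 there turned to 0.42 without SIRT7 KO mouse 1 and to 0.18 without WT mouse 1.

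**Figure D1:**
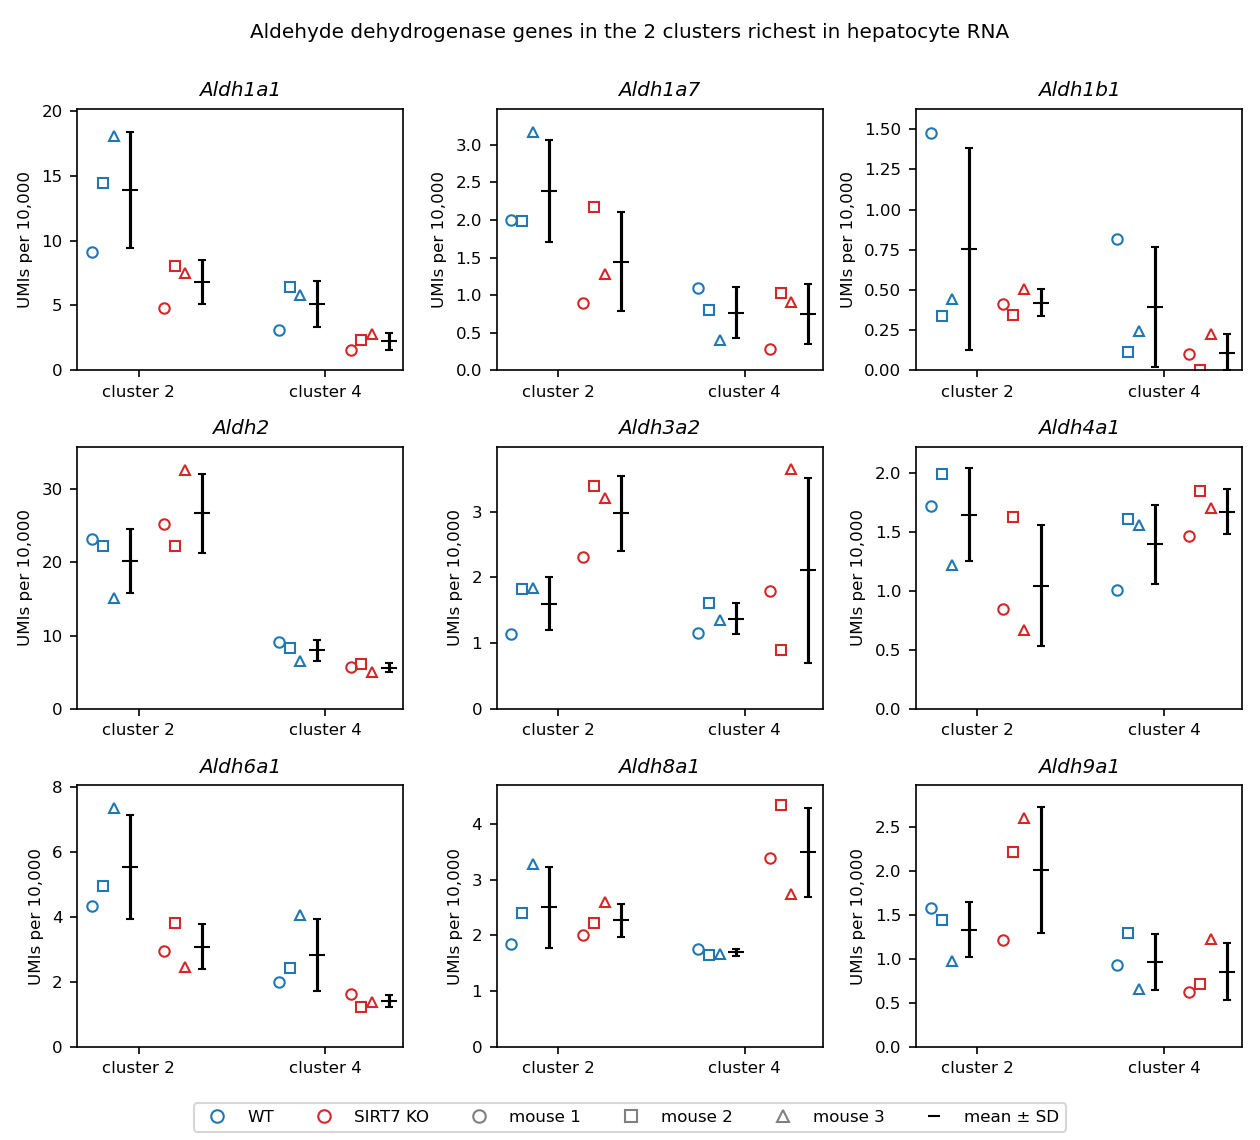
Level of each of the 9 genes (UMIs per 10,000, linear axis from 0) in hepatocyte clusters 2 and 4. Each point is 1 mouse, blue for WT and red for SIRT7 KO, and the black bars are means with SD, cut at 0. Aldh1a1 and Aldh6a1 are lower in every KO mouse than in every WT mouse in both clusters, Aldh3a2 is higher in cluster 2 and Aldh8a1 is higher in cluster 4.

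The mitochondrial acetaldehyde-oxidising enzyme Aldh2 (chromosome 5, 121566027 to 121593824, minus strand) had a higher mean in the KO mice in cluster 2 and a lower one in cluster 4. In cluster 2 it was at 23.2, 22.2 and 15.2 UMIs per 10,000 in the WT mice and at 25.2, 22.2 and 32.7 in the KO mice, a log2 difference of 0.41 ± 0.22 (SE) with overlapping groups, which came to 0.22 without WT mouse 3 and to 0.25 without SIRT7 KO mouse 3. In cluster 4 it was at 9.18, 8.28 and 6.45 in the WT mice and at 5.74, 6.12 and 5.00 in the KO mice, a log2 difference of -0.49 ± 0.36, and there every KO mouse lay below every WT mouse. Whether the differences of the clusters differ from each other was not tested. Over the pooled clusters the log2 difference of Aldh2 was -0.07 ± 0.46, and it turned sign in 3 of 14 alternatives, from -0.32 without WT mouse 3 to 0.19 without SIRT7 KO mouse 3. Aldh1b1 (chromosome 4, 45799022 to 45804604, plus strand), another mitochondrial enzyme that takes acetaldehyde, was sparse. In cluster 2 it was at 1.48, 0.339 and 0.446 UMIs per 10,000 in the WT mice and at 0.412, 0.345 and 0.509 in the KO mice, from 2 to 106 UMIs a mouse. WT mouse 1 was the highest in both clusters, and without it the log2 difference in cluster 2 turned from -0.51 to 0.09.

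Aldh3a2 (chromosome 11, 61223417 to 61267464, minus strand), which oxidises fatty aldehydes at the endoplasmic reticulum, was higher in the SIRT7 KO mice in cluster 2. It stood at 1.14, 1.83 and 1.84 UMIs per 10,000 in the WT mice and at 2.32, 3.40 and 3.21 in the KO mice, without overlap and with a log2 difference of 0.89 ± 0.30 (SE). With means of logged values, taken here and below over cells as log2(UMIs per 10,000 + 1), the difference was 0.47. The added 1 can shrink differences of low levels, so these values are a different measure. In cluster 4 the KO mice spread from 0.889 to 3.65 around WT values of 1.15 to 1.61. This difference of 0.40 ± 0.44 came to -0.10 without SIRT7 KO mouse 3.

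Among the genes of amino acid breakdown, Aldh6a1 (chromosome 12, 84430717 to 84451004, minus strand), the methylmalonate semialdehyde dehydrogenase of valine and thymine breakdown, paralleled Aldh1a1. In cluster 2 its levels were 4.34, 4.94 and 7.37 UMIs per 10,000 in the WT mice and 2.97, 3.82 and 2.45 in the KO mice. In cluster 4 they were 2.0, 2.41 and 4.07 against 1.62, 1.23 and 1.38. The groups did not overlap in either cluster, and the log2 differences were -0.82 ± 0.28 and -0.92 ± 0.38 (SE). Aldh8a1 (chromosome 10, 21377291 to 21396585, plus strand), which acts in the kynurenine route of tryptophan breakdown, was higher in the KO mice in cluster 4. There it stood at 1.76, 1.65 and 1.67 UMIs per 10,000 in the WT mice and at 3.40, 4.34 and 2.73 in the KO mice, a log2 difference of 1.0 ± 0.37. With means of logged values that difference was 0.46. In cluster 2 its means were 2.51 ± 0.726 in the WT and 2.27 ± 0.295 in the KO mice (SD, n = 3 each), and the log2 difference turned from -0.11 to 0.10 without WT mouse 3. Aldh4a1 (chromosome 4, 139622866 to 139649690, plus strand), the last enzyme of proline breakdown, had log2 differences of -0.70 ± 0.36 in cluster 2 and 0.28 ± 0.38 in cluster 4 and overlapped in both. Leaving out 1 mouse moved the first of these to between -1.06 (without SIRT7 KO mouse 2) and -0.44 (without SIRT7 KO mouse 3), and the other to 0.07 without WT mouse 1. With means of logged values the first was -0.23. Aldh9a1 (chromosome 1, 167349991 to 167368532, plus strand), which makes the precursor of carnitine, had log2 differences of 0.54 ± 0.34 and -0.17 ± 0.42 and overlapped in both as well. In cluster 2 the difference came to 0.32 without SIRT7 KO mouse 3, 0.34 without WT mouse 3, 0.85 without SIRT7 KO mouse 1 and 0.18 with voom. In cluster 4 it turned to 0.06 without WT mouse 2 and to 0.01 without SIRT7 KO mouse 1.

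Over the 9 genes, 6 had a lower and 3 a higher mean log2 level in the SIRT7 KO mice in each cluster, with medians of -0.51 in cluster 2 and -0.17 in cluster 4. The median log2 difference of all genes tested was -0.09 and 0.20, and 44.4% and 61.3% of them had a higher mean in the KO mice. All 9 passed the filter on low values in both clusters. With limma's test, adjusted by the Benjamini-Hochberg method within a cluster, 0 of the 9 were called in either, where 0.54% of the 8519 genes in cluster 2 and 0.233% of the 10310 genes in cluster 4 were called. In cluster 2 every KO mouse lay above every WT mouse for 1 of the 9 (7.85% of all genes) and below for 2 (8.98%), and in cluster 4 above for 1 (12.6%) and below for 3 (4.06%). Over the pooled clusters 0 of the 9 were called (0.112% of 9861 genes). There 2 lay above (10%), Aldh3a2 and Aldh8a1, and 2 below (3.23%), Aldh1b1 and Aldh6a1, whereas Aldh1a1 overlapped. Since the list was drawn up on this contrast, nothing is read from these counts, and a missing call does not show that levels were alike. The unadjusted p was under 0.05 for 907 of all genes in cluster 2 and 1050 in cluster 4.

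**Figure D2:**
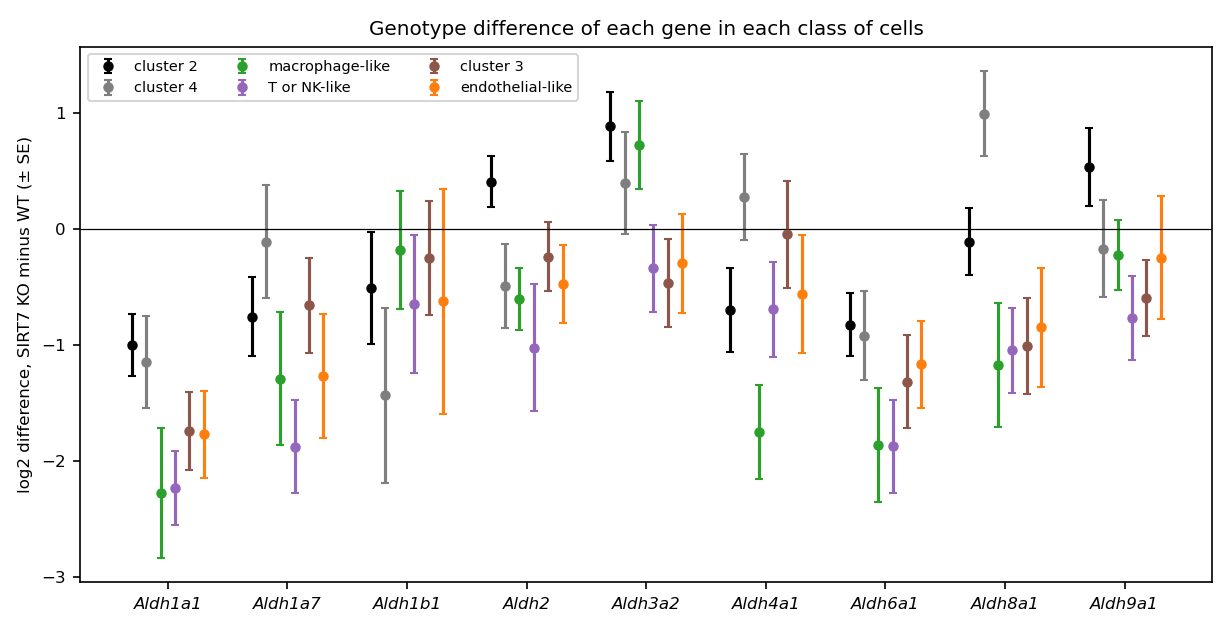
Log2 difference, SIRT7 KO minus WT, of each of the 9 genes in 6 classes of cells, with bars of 1 standard error from limma. Aldh1a1 and Aldh6a1 lie below 0 in every class shown, and Aldh2, Aldh4a1, Aldh8a1 and Aldh9a1 change side between clusters 2 and 4.

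The clusters also differed in level. Within each mouse, Aldh1a1 was higher in cluster 2 than in cluster 4 in 6 of 6 mice, by a median of 3.02 times (range 2.26 to 3.39), and Aldh2 in 6 of 6, by 3.16 times (2.36 to 6.54). Aldh1a7, Aldh6a1 and Aldh9a1 were higher in cluster 2 in 6 of 6 mice too, by medians of 2.28, 1.94 and 1.82 times. Aldh8a1 and Aldh4a1 did not share this: Aldh8a1 was higher in cluster 2 in 3 of 6 mice with a median ratio of 0.995, and Aldh4a1 in 2 of 6 with 0.828. The clusters were made from the same cells' genes, so these ratios carry no test.

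To ask how the genes lay along the lobule, the hepatocyte cells of each mouse were ordered by 6 pericentral and 6 periportal landmark genes that exclude the members, and split into 3 sets of 33 to 306 cells a mouse, of which the pericentral set was compared with the periportal set. Landmarks kept out of the order followed it in part: Lect2 and Gstm3 were higher in the pericentral set in 6 of 6 mice, and Arg1 was lower in 6 of 6, but Apof and Pigr were higher in 3 and 2 of 6. Each set held 981 cells over the 6 mice, and 602 of the 2956 cells lay within 0.05 of a boundary on the order's scale of 0 to 1.

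Aldh1a1 and Aldh2 had higher levels in the pericentral set in 6 of 6 mice. Aldh1a1 was at 7.34, 13.2 and 16.9 UMIs per 10,000 in the pericentral set of the WT mice and at 5.85, 11.8 and 9.30 in the periportal set. In the KO mice it was at 4.75, 8.05 and 4.88 against 2.57, 6.08 and 2.70, and the mean log2 difference over mice was 0.58 ± 0.18 (SE, n = 6). Aldh2 had a mean log2 difference of 0.55 ± 0.18, with 0.20 to 0.32 in the WT and 0.50 to 1.17 in the KO mice. Aldh1b1 had the opposite sign, with lower pericentral levels in 5 of 6 mice. Its pericentral levels in the WT mice were 1.30, 0.104 and 0 UMIs per 10,000 and its periportal levels 1.17, 0.589 and 1.06. In the KO mice they were 0.210, 0 and 0.0837 against 0.270, 0.427 and 0.605. These levels rest on few UMIs, pericentral against periportal 56 and 60, 5 and 21, and 0 and 3 in the WT mice. In the KO mice the UMIs were 7 and 10, 0 and 5, and 4 and 18. The mean log2 difference of Aldh1b1, -2.04 ± 0.55, depends on the value of 0.05 added before taking logs, and was -1.21 with 0.2 added.

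**Figure D3:**
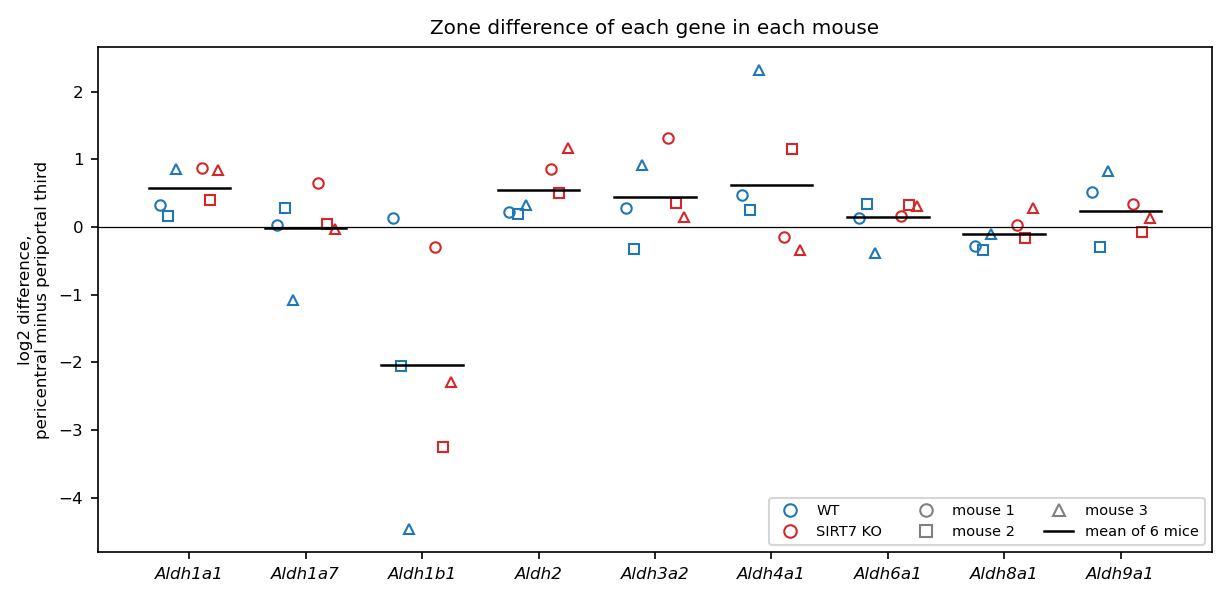
Log2 difference between the pericentral and periportal set of hepatocyte cells for each of the 9 genes, 1 point per mouse (blue WT, red SIRT7 KO) and a black line at the mean of 6 mice. Aldh1a1 and Aldh2 lie above 0 in all 6 mice and Aldh1b1 below 0 in 5 of 6.

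None of the 9 genes passed limma's test between the sets, paired by mouse. Adjusted p was 0.933 for Aldh1a1 and for Aldh2 and 0.872 for Aldh1b1, and 0 of all 9854 genes tested passed (0%), with 466 at an unadjusted p under 0.05. Without WT mouse 3, which gave 33 cells a set, 49 genes passed and again none of the 9, with adjusted p of 0.220 for Aldh1a1, 0.125 for Aldh2 and 0.087 for Aldh1b1. The sets did not hold the clusters equally. In WT mice 1, 2 and 3 cluster 2 made up 62.2, 88.8 and 45.5% of the pericentral set. Its shares of their periportal sets were 52.1, 71.2 and 72.7%. In SIRT7 KO mice 1, 2 and 3 the shares were 72.2, 80.9 and 32.4% against 40.5, 77.7 and 7.21%. WT mouse 3 alone had the smaller share in its pericentral set. With the sets taken within each cluster, a choice made after seeing these shares, the log2 differences were 0.48 for Aldh1a1, 0.40 for Aldh2 and -2.24 for Aldh1b1, and 5 of all genes passed. The other 6 genes had mean log2 differences from -0.10 (Aldh8a1) to 0.62 (Aldh4a1), and of these Aldh4a1 reached 2.32 in WT mouse 3 and lay below 0 in 2 mice. In the test of whether the zone difference differed between genotypes, 0 of 9854 genes passed limma's test (0%, and 401 at an unadjusted p under 0.05), and the 9 genes differed by -0.79 to 0.59.

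Over the 12 values of 6 mice and 2 sets, the closest pair among the 9 was Aldh1a1 with Aldh6a1 (Pearson r = 0.85), while Aldh1a1 with Aldh1a7 gave 0.68. Among 3252 genes with a mean of at least 0.5 UMIs per 10,000, the genes most like Aldh1a1 were Hmgcs1 (r = 0.91) and Hibch (0.91), a step of valine breakdown, and those most like Aldh6a1 were Cat (0.96) and Idi1 (0.94). Aldh1b1 was most like Arg1 (0.87), an enzyme of the urea cycle, and Aldh2 most like Ost4 (0.93) and Gsta3 (0.89). The 12 values mix both genotypes, on whose contrast the members were selected, and the 2 sets of a mouse share a library. These r therefore describe the values only.

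In the nonparenchymal classes the genes were counted at lower levels, and hepatocyte RNA was counted there too. The median of the 10 hepatocyte markers in macrophage-like cells was 2.6% to 20.1% of the level in cluster 2 of the same mouse, and in endothelial-like cells 12.5% to 29.5%. Divided by that median, Aldh1a1 stood at 1.21 times the markers in macrophage-like cells and at 1.01 times in T or NK-like cells (medians of 6 mice). Every member had a median above 1 in macrophage-like cells, the lowest being Aldh1a7 at 1.16 times. In endothelial-like cells every member but Aldh1b1 (0.52 times) did. In macrophage-like cells Aldh9a1, Aldh4a1 and Aldh2 had the highest medians, at 2.49, 2.37 and 1.93 times, and were above 1 in 6 of 6 mice each. They exceeded every one of the 10 markers in 3, 2 and 2 of the 6 mice. In endothelial-like cells Aldh3a2, Aldh4a1, Aldh2 and Aldh9a1 were above 1 in 5 of 5 mice, at medians of 2.33, 1.52, 1.45 and 1.44 times. Of these Aldh3a2 and Aldh4a1 exceeded every marker in 4 of 5 mice, Aldh2 in 3 and Aldh9a1 in 2. The levels of Aldh3a2 there were 0.739, 1.57 and 0.989 UMIs per 10,000 in the WT mice and 1.26 and 0.562 in SIRT7 KO mice 1 and 2, from 5 to 32 UMIs a mouse. In cluster 3, another nonparenchymal class, Aldh1b1 stood at 2.06 times, above 1 in 6 of 6 mice and above every marker in 4. It rested on 3 to 12 UMIs a mouse. All these ratios take cluster 2 alone as the reference, where the summed markers stood at 579 UMIs per 10,000 against 365 in cluster 4. The median ratio of cluster 2 to cluster 4 was 0.828 for Aldh4a1, 1.21 for Aldh3a2, 1.82 for Aldh9a1 and 3.16 for Aldh2. The part of hepatocyte RNA from cluster 4 in the values above 1 was not tested.

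**Figure D4:**
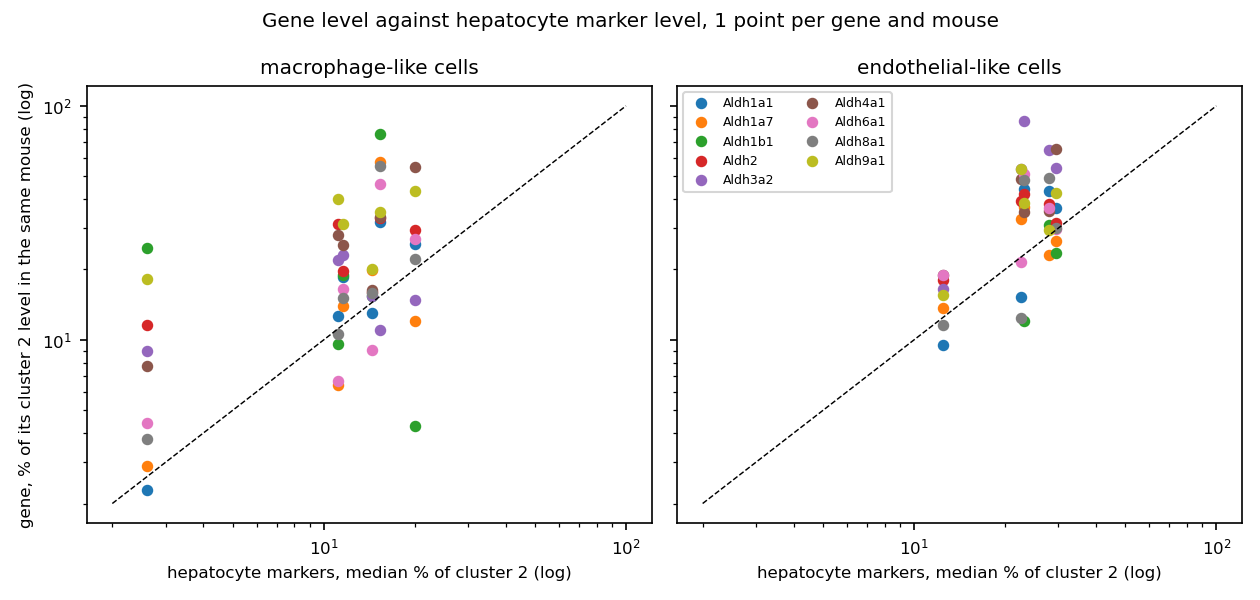
Level of each gene in macrophage-like and endothelial-like cells as a percentage of its level in hepatocyte cluster 2 of the same mouse (vertical log axis), against the median percentage of 10 hepatocyte markers (horizontal log axis). Each point is 1 gene in 1 mouse, the dashed line marks equality, and 2 values of Aldh1b1 at 0 are not drawn. Aldh2, Aldh4a1 and Aldh9a1 lie above the line in every mouse in both panels, and Aldh3a2 does in endothelial-like cells.

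Between genotypes most nonparenchymal differences of the 9 genes were below 0. In macrophage-like cells 1 of the 9 had a higher mean log2 level in the SIRT7 KO mice (47.2% of all genes). In T or NK-like cells (44.6%), cluster 3 (45.8%) and endothelial-like cells (47.0%) 0 of the 9 did. In plasma B-like cells 0 of 8 did (64.4%), and in B-like cells 2 of 9 (52.6%). The members were selected on this contrast too, so nothing is read from these counts. Aldh1a1 was lower in the SIRT7 KO mice without overlap in all 6 nonparenchymal classes compared. In macrophage-like cells it was at 2.34, 4.62 and 2.29 UMIs per 10,000 in the WT mice and at 0.900, 0.184 and 0.981 in the KO mice. In T or NK-like cells it was at 3.32, 3.53 and 4.89 against 1.36, 0.566 and 0.612, a log2 difference of -2.23 ± 0.32 (SE). In endothelial-like cells it was at 3.98, 6.40 and 2.74 in the WT mice and at 1.78 and 0.766 in the 2 KO mice with at least 20 such cells. With means of logged values, a measure that can shrink differences of low levels, Aldh1a1 differed by -0.83 in macrophage-like cells, against -2.28. The values were -1.23 against -2.23 in T or NK-like cells and -1.11 against -1.77 in endothelial-like cells. The hepatocyte markers, as a share of their level in cluster 2, were lowest in SIRT7 KO mouse 2 in each class with a value from it, at 2.6% in macrophage-like and 8.01% in T or NK-like cells. The part of this RNA in the nonparenchymal differences was not tested. For the same reason the counts that follow are a description from which nothing is read. Past the threshold in limma were 1 of the 9 genes in T or NK-like (0.13% of all genes) and in endothelial-like cells (0.281%), Aldh1a1 in both, and 0 in macrophage-like cells (0.201%), cluster 3 (0.0308%), plasma B-like cells (0.0782%) and B-like cells (0.0215%). Every KO mouse lay below every WT mouse for 3 of the 9 genes in macrophage-like cells (9.85% of all genes), 4 in T or NK-like (6.45%), 3 in cluster 3 (7.06%), 4 in endothelial-like (12.8%), 4 in plasma B-like (11.2%) and 2 in B-like cells (13%), where 1 lay above (15.8%). Plasma B-like and B-like cells had 2 mice per genotype, and Aldh1b1 did not pass the filter in plasma B-like cells. Aldh3a2 was the 1 member with a higher mean in macrophage-like KO cells, at 0.536, 0.304 and 0.495 UMIs per 10,000 against 0.168, 0.20 and 0.406 in the WT mice, and the groups overlapped.

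Other genes around these enzymes were counted from lists. Of 11 further aldehyde dehydrogenase genes measured, 4 passed the filter in cluster 2 and 5 in cluster 4. Of these 0 were called in either (0.54% and 0.233% of all genes). The closest was Aldh1l1, the cytosolic formyltetrahydrofolate dehydrogenase, at 9.80, 9.81 and 10.2 UMIs per 10,000 in cluster 2 of the WT mice and at 3.42, 6.79 and 5.14 in the KO mice. Its log2 difference was -1.0 ± 0.26 (SE) with an adjusted p of 0.077 in limma, and -0.64 ± 0.38 in cluster 4. In cluster 2 Aldh1l1 was called in 1 of 14 alternatives, with voom (adjusted p = 0.00822 in limma). The highest adjusted p was 0.476, with a replicate block. Aldh7a1, which breaks down lysine, stood at 3.47 ± 1.41 and 3.18 ± 0.160 in cluster 2 (SD, n = 3 each). Aldh5a1, of GABA breakdown, stood at 0.587 ± 0.0261 and 0.484 ± 0.0621 there, and Aldh16a1 at 0.433 ± 0.199 and 0.664 ± 0.0460 in cluster 4.

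Of 8 lists of genes that feed or parallel the members, 57 genes were tested in cluster 2 and 56 in cluster 4. A higher mean in KO was found for 25 and 18 of them, against 44.4% and 61.3% of all genes tested. Of all genes 0.54% were called in cluster 2 and 0.233% in cluster 4. Of the list genes only Cyp2e1, a cytochrome that oxidises ethanol and 1 of the 6 pericentral landmarks, was called, and only in cluster 2. It fell there from 8.47, 20.4 and 12.6 UMIs per 10,000 in the WT mice to 6.08, 4.47 and 4.80 in the KO mice, with a log2 difference of -1.34 ± 0.28 (SE) and an adjusted p of 0.0243 in limma. Its adjusted p came to 0.186 without WT mouse 2, 0.0967 without WT mouse 3, 0.128 without SIRT7 KO mouse 2, 0.471 with a replicate block, 0.102 with a filter at 0.2 UMIs per 10,000, 0.281 with means of logged values and 0.165 with voom. The call held in 7 of 14 alternatives, with adjusted p from 0.000245 to 0.471. In cluster 4 it had a log2 difference of -1.15 ± 0.39 (adjusted p = 0.303 in limma). Of the 6 genes of its list, on alcohol and aldehyde oxidation, 3 had a lower mean in KO in cluster 2 and 5 in cluster 4, and Adh1, the main alcohol dehydrogenase of liver, stood at 14.6 ± 5.52 and 12.3 ± 2.86 in cluster 2. The retinoid oxidation list had a lower mean in KO for 9 of 12 genes in cluster 2 (median -0.55) and for 6 of 12 in cluster 4 (median -0.02). Among its members Rbp4, the retinol carrier, stood at 27.9 ± 7.47 in the WT and 19.3 ± 5.28 in the KO mice in cluster 2. Dhrs4 of that list stood at 3.48 ± 0.314 in the WT and 4.84 ± 0.624 in the KO mice there. The 7 tested genes of other aldehyde clearance all had a higher mean in KO in cluster 2 (median 0.34), and 6 of 7 a lower one in cluster 4 (median -0.42). Gsta3, a glutathione transferase, stood at 29.0 ± 2.01 and 36.9 ± 4.26 in cluster 2 and at 13.7 ± 4.01 and 7.41 ± 1.32 in cluster 4.

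The remaining lists had no gene called. The proline list had 4 of 6 genes lower in cluster 2 and 3 of 6 in cluster 4. Glud1, glutamate dehydrogenase, stood at 9.40 ± 2.40 and 7.09 ± 1.53 in cluster 2. Two-way directions were present, with Oat at 8.09 ± 3.40 and 12.3 ± 6.33 in cluster 2 and Prodh2 at 7.58 ± 0.585 and 9.83 ± 0.471 in cluster 4. The valine and branched-chain list had 7 of 13 and 10 of 13 lower, with Hibadh, the step before Aldh6a1 in valine breakdown, at 5.33 ± 1.46 and 3.80 ± 0.344 in cluster 2 and at 2.32 ± 0.562 and 1.2 ± 0.254 in cluster 4. The kynurenine list had 4 of 6 and 3 of 6 lower. Tdo2, which opens tryptophan breakdown, stood at 13.6 ± 3.72 and 7.80 ± 1.69 in cluster 2 and at 17.5 ± 2.13 and 9.27 ± 2.64 in cluster 4. Haao of the same list stood at 4.26 ± 1.08 and 5.46 ± 0.381 in cluster 2 and at 2.91 ± 0.645 and 3.19 ± 0.47 in cluster 4. The carnitine list had 3 of 4 and 2 of 3 lower, and the fatty aldehyde list 2 of 3 and 3 of 3. Phyh, a peroxisomal enzyme of the latter, stood at 13.3 ± 2.44 and 14.5 ± 1.06 in cluster 2 and at 5.78 ± 1.61 and 2.80 ± 0.327 in cluster 4. Values are WT then KO means with SD over 3 mice. Between the zones, 55 genes of these lists were tested and 0 were called, as were 0 of all 9854 genes (0%). A higher pericentral mean was found for 36 of the 55, and for all 7 of other aldehyde clearance (median 0.38), against 49.0% of all genes.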

How the data were processed

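Cells of 3 WT and 3 SIRT7 KO livers were analysed. The authors aligned reads to mm10 with Cell Ranger 6.0.0, kept cells with at least 500 genes and at most 5% mitochondrial reads and genes seen in 3 cells, scaled each cell to 10000 UMIs and took the natural log of the value plus 1. These deposited natural log values were turned back into UMIs per 10,000 and into whole UMIs (tolerance 0.02, met by every one of the 12961041 nonzero values). Cells were clustered again with Scanpy 1.11.5 (1000 variable genes, 50 components, 3 neighbours per mouse, resolution 0.35), since the authors' cell labels were not used here. Mean levels per mouse, with at least 20 cells, were tested with limma 3.58.1 on log2(mean + 0.05) over genes with a mean of at least 0.05, and adjusted by Benjamini-Hochberg at 0.05. Neutrophil-like and stellate-like cells had too few mice with 20 cells for a genotype comparison. Fits were tested on simulated data, in which they called none of the smaller changes and, in cluster 4, none of the larger ones, so a count of 0 does not show that genes did not differ. Separate mice are given only by their labels. Members, lists and motifs were chosen with earlier results of these data known. Named genes are the 9 members, those of the lists with a call, the list genes with the highest means, and the 2 genes most like a member, of which some are printed. Scrublet scores marked 46 cells (0.396%), too few to have worked, so no doublets were removed. Depth limits sparse genes, and UMI counts carry counting error in addition to the spread between mice. Whether the same replicate number marks a pair of mice is not given in the sources used here. Correlations of deviations between such mice, taken in hepatocyte clusters 2 and 4, were from -0.17 to -0.03.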

Additional observations from a re-analysis of the deposited data

How the results depend on the processing

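Counts of genes called at an adjusted p under 0.05 in limma moved with the processing. In hepatocyte cluster 2 (46) they were 70 with 0.2 added before logs, 26 with a filter at 0.2 UMIs per 10,000, 79 with no filter, 13 with means of logged values, 483 with voom on summed UMIs, and 2 with a replicate block. In cluster 4 (24) they were 39, 8, 10, 15, 88 and 44 in the same order. Over the pooled clusters (11) they were 3 with no filter, 0 with means of logged values and 3 with voom. Summed over nonparenchymal classes (74) they were 44 with the filter, 168 without one, 204 with means of logged values and 306 with a replicate block, which could be fitted in 4 of 6 classes. Between zones (0) they were 5 with sets within each cluster. Leaving out 1 mouse at a time gave 23 to 170 in cluster 2, 5 to 108 in cluster 4, 3 to 27 pooled, 23 to 796 in the nonparenchymal classes, 0 to 49 between zones and 0 to 0 for the difference of zones between genotypes. The lone mouse of a group, where a group came to 1, was assumed to vary like the others. The extremes came without WT mouse 2 and SIRT7 KO mouse 3 in cluster 2, without WT mouse 3 and SIRT7 KO mouse 3 in cluster 4, and without WT mouse 1 and WT mouse 3 in the nonparenchymal classes. The cause was not tested.

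Of the 126 alternative values of the 9 genes in cluster 2, 122 kept the sign of the difference, and 121 of 126 did in cluster 4. Aldh1a1 stayed between -1.27 and -0.77 in cluster 2 and between -1.47 and -0.89 in cluster 4, and Aldh6a1 between -0.99 and -0.52 and between -1.13 and -0.57. Between zones 129 of 135 kept it. The exceptions were Aldh1a7 (-0.02), at 0.0583 in cells with at least 1500 UMIs, 0.0101 with a score without Oat and Ass1 and -0.15 to 0.20 with 1 mouse left out (0.20 without WT mouse 3), and Aldh8a1 (-0.10), at 0.0896, 0.00398 with sets within each cluster and 0.0182 without Oat and Ass1. Whether the same number marks a pair of mice is not given, so the replicate block is given only as an alternative. Leaving out doublets by caller was not run, since the caller marked too few cells. Leaving out the top 5% of doublet scores, sets within clusters and the score without Oat and Ass1 were chosen after seeing the data. Levels of Aldh1b1 rest on 0 to 106 UMIs a mouse in the hepatocyte clusters and on 0 to 60 in the zone sets.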
